A study of Mus musculus with 18 samples.

Results

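The collagen genes are the genes whose symbol has the form Col, a number, a and a number, which took in 44 of the 34937 genes counted. By the type of collagen they encode, 11 are fibrillar, 6 are the type IV chains of basement membranes and 27 belong to the other types. They were measured in poly-A RNA from 18 livers of mice that carry MycER, a Myc protein fused to an oestrogen receptor part and switched on by tamoxifen. Every liver had been injured with carbon tetrachloride, given into the peritoneum at 0.5 µL per g of body weight, and the MycER of activated mice was switched on with 1 mg of tamoxifen a day by the same route. Groups 1OFF, 2OFF, 3OFF and 7OFF were sampled at day 1, 2, 3 and 7 after injury, and the labels give them as without MycER activation. Group 12ON was sampled at day 12 with MycER active, and group 12 at day 12 without it. Each group held 3 mice. The labels do not say whether MycER had been active earlier in the OFF groups, whether group 12 received tamoxifen, which promoter drives MycER, or the age and sex of the mice. The design text asks how 12ON differs from 12 and how each OFF group differs from 12ON. Each OFF group differs from 12ON in the day after injury as well as in MycER state, and these cannot be told apart. If group 12 received no tamoxifen, active MycER and tamoxifen itself cannot be told apart in 12ON against 12.

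Collagens are extracellular proteins whose chains wind around each other into a helix. Fibrillar collagens, above all types I, III and V, build the fibres of scars, type IV collagen forms the sheet of basement membranes under epithelium and around vessels, and the other types sit on fibre surfaces, span cell membranes or form beaded filaments. In liver the fibres come mainly from activated stellate cells and portal fibroblasts, and carbon tetrachloride, which hepatocytes turn into a toxic radical, is a common way to provoke them. Collagen XVIII, whose end fragment is endostatin, is unusual in that hepatocytes make it.

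The libraries held 23.1 to 75.3 M counts, and collagen genes took 0.122% to 0.269% of them. Levels are CPM, counts set relative to the TMM-scaled size of their library, and values of a group run through replicates 1 to 3. Of the 44 collagen genes, 36 had at least 1 count in every library, 1 (Col2a1) had none in any, and 36 passed the filter on low counts and were tested. Differences are log2 fold changes from edgeR's quasi-likelihood test, called at an adjusted p under 0.05 over all 17789 genes tested. Xist, the RNA of the inactive X chromosome, stood above 100 CPM in 1 library each of 2OFF, 3OFF, 7OFF, 12ON and 12 and in none of 1OFF. The mitochondrial share of counts was 6.42% to 7.11% in 12ON and 4.80% to 5.25% in group 12, so these groups did not overlap in it. In whole liver, more collagen-making cells and more collagen RNA per cell cannot be told apart.

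Promoter sequence is shown for 5 of the 11 genes that were higher in 12ON than in 12. Col5a1 and Col6a3, also higher, have windows that are not shown, and Col1a1, Col5a2, Col9a3 and Col12a1, the rest of the 11, have none. Each window, on GRCm38.p6, runs from 250 bases before to 50 after a start given by RefSeq, 5′ to 3′ on the strand of the gene. The counted Col1a2 gene starts at 4504814, before its window, so that window is set on another start. Of the 44 collagen genes 35 have a window, some more than one, which gives 38 windows. Capitals mark matches to the sequence CCAAT, to the TATA box motif, searched as TATAAA, and to the GC box motif, searched as GGGCGG, each on either strand, so that a match on the other strand stands as the reverse complement. Col1a2 lies at chr6:4505368-4505667 on the plus strand, Col3a1 at chr1:45311288-45311587 on the plus strand, Col16a1 at chr4:130047590-130047889 on the plus strand, Col4a1 at chr8:11312777-11313076 on the minus strand and Col4a2 at chr8:11312555-11312854 on the plus strand.
Col1a2: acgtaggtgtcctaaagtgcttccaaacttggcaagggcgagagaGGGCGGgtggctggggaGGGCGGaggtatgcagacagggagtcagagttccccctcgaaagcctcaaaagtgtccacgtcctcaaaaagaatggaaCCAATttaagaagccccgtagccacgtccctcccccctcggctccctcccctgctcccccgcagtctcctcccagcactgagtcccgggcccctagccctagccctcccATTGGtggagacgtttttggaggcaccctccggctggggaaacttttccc
Col3a1: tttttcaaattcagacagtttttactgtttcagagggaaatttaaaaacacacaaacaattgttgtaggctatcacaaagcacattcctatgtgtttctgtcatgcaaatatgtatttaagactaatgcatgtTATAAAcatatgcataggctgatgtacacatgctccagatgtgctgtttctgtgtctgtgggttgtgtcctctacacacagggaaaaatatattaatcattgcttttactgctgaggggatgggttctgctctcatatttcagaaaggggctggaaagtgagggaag
Col16a1: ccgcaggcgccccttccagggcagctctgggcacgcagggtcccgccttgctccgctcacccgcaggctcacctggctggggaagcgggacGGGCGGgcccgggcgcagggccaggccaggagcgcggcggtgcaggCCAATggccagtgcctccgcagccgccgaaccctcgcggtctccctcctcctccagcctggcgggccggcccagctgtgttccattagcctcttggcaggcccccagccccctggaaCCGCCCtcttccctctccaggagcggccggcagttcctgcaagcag
Col4a1: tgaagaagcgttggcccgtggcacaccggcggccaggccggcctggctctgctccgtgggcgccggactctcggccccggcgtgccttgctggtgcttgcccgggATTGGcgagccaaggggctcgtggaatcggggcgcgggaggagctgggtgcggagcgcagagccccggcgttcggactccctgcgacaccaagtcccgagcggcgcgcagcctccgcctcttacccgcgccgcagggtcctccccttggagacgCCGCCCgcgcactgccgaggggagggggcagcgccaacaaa
Col4a2: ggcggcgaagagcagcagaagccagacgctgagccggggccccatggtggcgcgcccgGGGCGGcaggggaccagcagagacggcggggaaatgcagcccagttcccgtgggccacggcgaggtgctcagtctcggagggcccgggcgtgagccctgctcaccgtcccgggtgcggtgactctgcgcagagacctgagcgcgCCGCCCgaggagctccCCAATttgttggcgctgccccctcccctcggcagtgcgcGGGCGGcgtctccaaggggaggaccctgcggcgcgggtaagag

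The Col4a1 and Col4a2 windows cover 78 bases in common, chr8:11312777-11312854, because both genes start there on opposite strands, with their first bases 21 apart. CCAAT stood in 13 of the 38 collagen windows (34.2%) and in 37.4% of all 32851 windows, and TATAAA in 5 (13.2%) and 13.6% of all. GGGCGG, the core of the box that Sp1 binds, stood in 23 collagen windows (60.5%) and in 35.7% of all. CACGTG, the E-box that Myc binds with Max, had no match in the 38 collagen windows and one or more in 7.15% of all windows. The 9 collagen genes without a window, Col1a1 among them, were not searched. These matches describe letters in a short window and no binding was measured.

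Read per kilobase (kb) of annotated exon, as a level over all 18 livers, Col18a1 led with 148 CPM per kb. Next came the fibrillar Col3a1 (24.8 CPM per kb) and the type IV gene Col4a1 (24.3). Col1a1 (12.98), Col14a1 (12.5), Col4a2 (11.1) and Col1a2 (9.60) followed. In group 12 alone Col4a1 (14.7 CPM per kb) stood above Col3a1 (11.9), while in 12ON Col3a1 (35.2) stood above Col4a1 (30.8). Below them stood Col6a1 (6.48 CPM per kb), and the other 36 genes lay under 6.48 CPM per kb. The 8 genes that were not tested, Col2a1, Col9a1, Col9a2, Col10a1, Col11a1, Col17a1, Col19a1 and Col28a1, are mostly those of cartilage and skin and never passed 22 counts in a library. The levels of the main genes by library show that the types that build scars sat together in the 1OFF, 2OFF and 12ON livers and lower in 7OFF and 12.

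**Figure D1:**
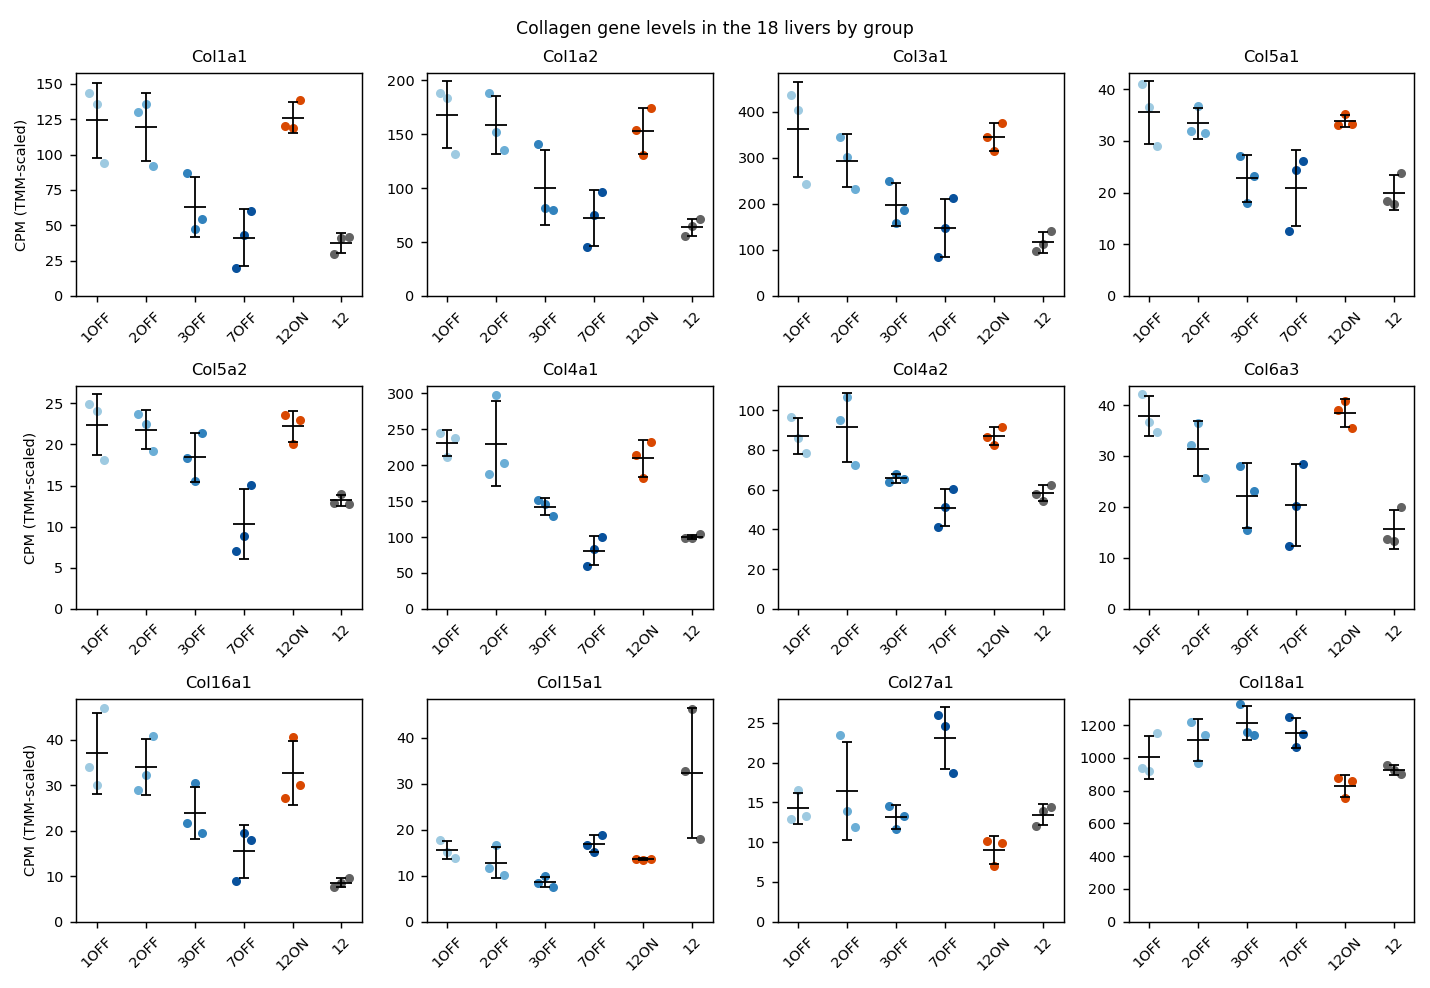
Levels of the main collagen genes in each library, as TMM-scaled CPM for 12 genes, with 1OFF, 2OFF, 3OFF, 7OFF, 12ON and 12 from left to right, 1 point a liver, and a bar and error bars at the mean and SD of 3 livers; each y axis starts at 0 and has its own scale. Col1a1 averages 126 CPM in 12ON and 37.4 CPM in 12, while Col18a1 stays between 754 and 1331 CPM throughout.

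At day 12, RNA of the scar-type collagens stood at a higher level relative to the library in livers with active MycER than in livers without. Of the 36 collagen genes tested, 11 were higher in 12ON than in group 12 and 5 were lower. Among all genes tested 24% were higher and 22.6% lower, so the share of collagens that were higher, 30.6%, stood near that background and the share that were lower, 13.9%, below it. The median log2 fold change of the 36 was 0.13, and that of all genes -0.0047. By type, 5 of 9 fibrillar genes were higher and 1 lower (median of the 9, 0.75), 2 of 6 type IV genes were higher, and of 21 others 4 were higher and 4 lower. The largest rises were those of Col16a1 (3.77-fold), Col1a1 (3.37-fold) and Col3a1 (2.95-fold), and the largest fall that of Col25a1, a transmembrane collagen with few counts (-2.62 ± 0.56 on the log2 scale). For all 16 genes called, the 3 livers of 12ON and the 3 of group 12 did not overlap. The same held for 97.0% of all genes called in this comparison. With a term for the mitochondrial share in the fit, 2 collagens stayed higher (Col16a1 and Col4a1) and 2 were lower. Over all genes this term cut the calls from 8298 to 4117. As these groups did not overlap in the mitochondrial share, the term cannot separate that share from the difference between the groups. Of the 5 collagens lower without the term, Col15a1, Col22a1, Col25a1 and Col27a1 were no longer called with it. Col1a1 was then at 1.15 (adjusted p = 0.0801), Col3a1 at 0.95 (adjusted p = 0.0963) and Col1a2 at 0.83 (adjusted p = 0.126), none of them called. On library totals without TMM, where the median of all genes shifts by 0.49, 18 were higher and 3 lower. Over all genes 10533 were called on library totals.

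**Figure D2:**
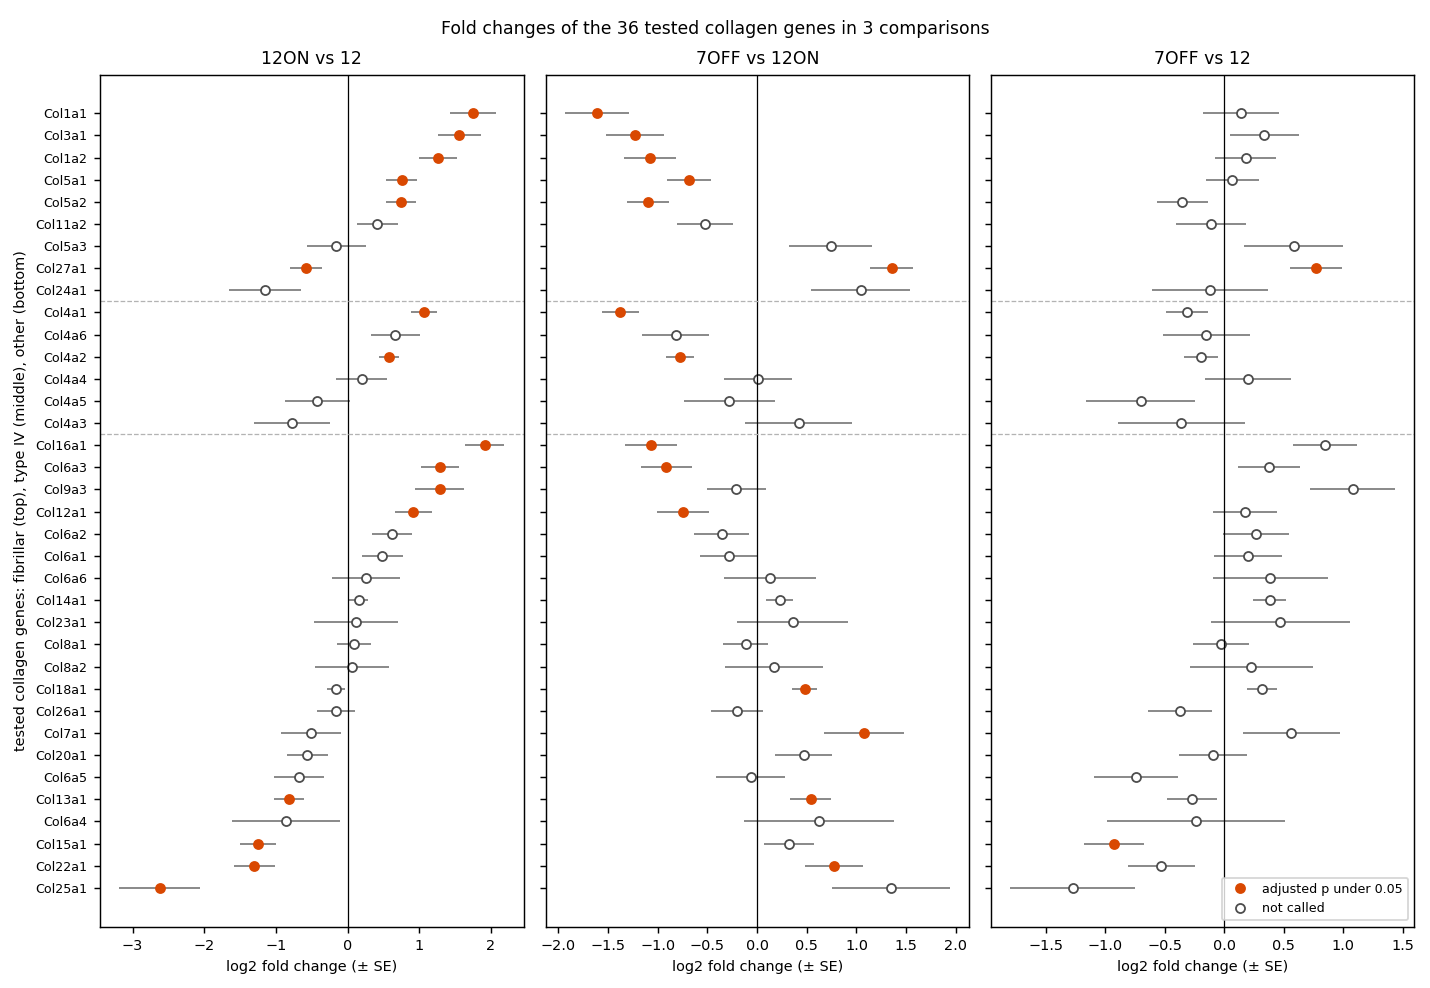
Log2 fold change (point) and its SE (line) of the 36 tested collagen genes in 12ON vs 12, 7OFF vs 12ON and 7OFF vs 12, with fibrillar genes at the top, type IV in the middle and other types at the bottom; filled points have an adjusted p under 0.05, and each panel has its own scale. Col1a1 is at 1.75 in 12ON vs 12 and at -1.61 in 7OFF vs 12ON, and the 2 filled points in 7OFF vs 12 are Col27a1 and Col15a1.

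Markers of the cell types of liver differed between the same groups. All 7 hepatocyte markers were lower in 12ON, with a summed level of 27328 to 34809.9 CPM in 12ON livers, against 105051 to 115678 CPM in group 12. Of 10 stellate cell markers 2 were higher, Lrat (0.48 ± 0.15 (SE, adjusted p = 0.0144)) and Pdgfrb (0.53 ± 0.21 (SE, adjusted p = 0.0483)), and none lower, with summed levels of 244 to 275 CPM in 12ON and 234 to 285 CPM in 12. Those of portal fibroblasts, mesothelium and myofibroblasts summed to 75.8 to 76.4 CPM in 12ON and 40.5 to 49.5 CPM in 12, but only Eln, elastin (2.04 ± 0.41 (SE, adjusted p = 0.000851)), was higher among the 12 and Wt1 lower. Acta2, the smooth muscle actin by which activated stellate cells are recognised, did not pass (0.27 ± 0.25 (SE, adjusted p = 0.401)). Cholangiocyte markers were higher in 7 of 8 cases and summed to 194 to 215 CPM in 12ON and 34.4 to 95.9 CPM in 12. Endothelial markers were lower in 7 of 9 cases, 179 to 207 CPM in 12ON and 349 to 398 CPM in 12, and macrophage markers in 5 of 8, with 1 higher, 402 to 595 CPM in 12ON and 884 to 1212 CPM in 12. Of 11 markers of cartilage, muscle and skin, 3 were tested and 1 (Sox9, also a cholangiocyte marker) was higher; the list summed to 17.6 to 24.8 CPM in 12ON and 11.9 to 17.7 CPM in 12, and Acan and Matn1 were at 0 in every 12ON liver. The part of these cell types in the collagen differences was not tested.

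Col1a1 (chr11:94936224-94953042) and Col1a2 encode the chains of type I collagen, the main protein of scar fibres. Col1a1 stood at 143, 136 and 93.7 CPM in 1OFF livers, 130.4, 136 and 91.7 in 2OFF, 86.8, 47.3 and 54.2 in 3OFF and 19.9, 43.5 and 60.4 in 7OFF. It stood at 121, 119 and 139 CPM in 12ON livers, against 29.4, 40.8 and 41.96 CPM in group 12. The 12ON and 12 livers did not overlap, every 1OFF and 2OFF liver lay above every liver of group 12, and 7OFF spread from below group 12 to above it. The rise in 12ON over 12 was 1.75 ± 0.32 (SE, adjusted p = 0.000428), and the fall in 7OFF against 12ON -1.61 ± 0.32 (SE, adjusted p = 0.000912). Col1a2 stood at 188, 183 and 132 CPM in 1OFF livers, 188, 152 and 135 in 2OFF, 141, 81.2 and 79.5 in 3OFF and 45.6, 74.7 and 96.6 in 7OFF. Its levels were 154, 130.5 and 174 CPM in 12ON livers, against 55.5, 64.9 and 70.9 CPM in group 12, again apart. Col1a2 also rose, 1.26 ± 0.26 (SE, adjusted p = 0.00104), and was lower in 7OFF than in 12ON (-1.08 ± 0.26 (SE, adjusted p = 0.00348)). In 3OFF Col1a1 was lower than in 12ON (-1.01 ± 0.32 (SE, adjusted p = 0.0242)), while Col1a2 did not pass (-0.60 ± 0.26 (SE, adjusted p = 0.0839)).

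Col3a1 encodes type III collagen, which forms the fine reticular fibres of liver and enters early scars with type I. Col3a1 stood at 436, 404 and 244 CPM in 1OFF livers, 346, 302 and 233 in 2OFF, 249, 157 and 188 in 3OFF and 84.1, 147 and 212 in 7OFF. It stood at 346, 314 and 376 CPM in 12ON livers, against 96.8, 112 and 142 CPM in group 12. The lowest 12ON liver was above the highest of group 12, and in 7OFF 1 liver lay under group 12 and 2 above it. Col3a1 rose in 12ON over 12 (1.56 ± 0.29 (SE, adjusted p = 0.000498)) and was lower than in 12ON in 3OFF (-0.80 ± 0.29 (SE, adjusted p = 0.0449)) and 7OFF (-1.22 ± 0.29 (SE, adjusted p = 0.00324)). The gene shares 141 of 9816 exon bases with another annotated gene on the same strand, a region where a read counted for both.

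The type V chains Col5a1 and Col5a2 start fibrils and set their width. Col5a1 stood at 41.1, 36.6 and 29.03 CPM in 1OFF livers, 31.8, 36.8 and 31.5 in 2OFF, 27.1, 17.9 and 23.2 in 3OFF and 12.5, 24.4 and 26.02 in 7OFF, and at 33.1, 35.2 and 33.3 CPM in 12ON livers, against 18.3, 17.9 and 23.8 CPM in group 12. Col5a2 stood at 24.9, 24.1 and 18.1 CPM in 1OFF livers, 23.7, 22.5 and 19.1 in 2OFF, 18.3, 15.5 and 21.4 in 3OFF and 7.02, 8.86 and 15.1 in 7OFF, and at 23.6, 20.01 and 22.98 CPM in 12ON livers, against 12.8, 13.96 and 12.8 CPM in group 12. Both were higher in 12ON than in 12, by 0.76 ± 0.22 (SE, adjusted p = 0.0106) for Col5a1 and 0.75 ± 0.21 (SE, adjusted p = 0.00874) for Col5a2. With the mitochondrial term these differences were 0.22 and 0.29 and did not pass (adjusted p = 0.619 and 0.491). Both were lower in 7OFF than in 12ON, by -0.69 ± 0.22 (SE, adjusted p = 0.0189) and -1.10 ± 0.21 (SE, adjusted p = 0.000689). The third chain of this type, Col5a3, had 25.4, 6.44 and 19.9 CPM in 12ON livers, against 22.7, 12.5 and 22.6 CPM in group 12. It varied about as much within groups as between them: Col5a3 stood at 40.8, 22.7 and 36.7 CPM in 1OFF livers, 26.5, 18.05 and 29.7 in 2OFF, 38.7, 19.9 and 26.6 in 3OFF and 39.3, 20.2 and 27.3 in 7OFF, and replicate 2 was the lowest of its group in all 6 groups. At each replicate number the 12ON liver lay under that of every OFF group, though the labels do not say that these numbers pair mice. In the fit without the replicate number, Col5a3 passed in none of these comparisons (12ON against 12, -0.15 ± 0.42 (SE, adjusted p = 0.787)).

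Col27a1, a fibrillar collagen of growing cartilage, moved opposite to the other fibrillar genes called. Col27a1 stood at 12.95, 16.5 and 13.3 CPM in 1OFF livers, 23.4, 13.9 and 11.9 in 2OFF, 14.6, 11.7 and 13.2 in 3OFF and 26.03, 24.6 and 18.7 in 7OFF. It had 10.2, 7.04 and 9.85 CPM in 12ON livers, against 11.99, 13.96 and 14.4 CPM in group 12. All 3 livers of 12ON lay under all 3 of group 12, and under all livers of every OFF group. Col27a1 was lower in 12ON than in 12 (-0.58 ± 0.22 (SE, adjusted p = 0.0415)), a call that ended on leaving out replicate 2 or 3 of 12ON or replicate 2 or 3 of group 12, with a highest adjusted p of 0.170. On library totals without TMM the difference was -0.094 (adjusted p = 0.727). In 7OFF it was higher than in 12ON (1.35 ± 0.22 (SE, adjusted p = 0.00017)), and this held with any one library left out. Col24a1 was not called in 12ON against 12 (-1.16 ± 0.50 (SE, adjusted p = 0.0717)), nor was Col11a2 (0.42 ± 0.29 (SE, adjusted p = 0.249)); both stayed under 2 CPM in every library.

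Col4a1 (chr8:11198423-11312826) and Col4a2 (chr8:11312805-11449287) encode the type IV chains that nearly every basement membrane holds, and they share the promoter region shown above. Col4a1 stood at 245, 211 and 237 CPM in 1OFF livers, 188, 298 and 203 in 2OFF, 152, 147 and 129 in 3OFF and 60.1, 82.7 and 99.8 in 7OFF. It stood at 215, 182 and 232 CPM in 12ON livers, against 98.3, 98.8 and 104 CPM in group 12, and the lowest 12ON liver was well above the highest of group 12. Col4a2 stood at 96.7, 86.05 and 78.6 CPM in 1OFF livers, 95.02, 107 and 72.4 in 2OFF, 63.6, 68.1 and 65.5 in 3OFF and 41.4, 51.2 and 60.1 in 7OFF, and at 86.7, 82.6 and 91.5 CPM in 12ON livers, against 57.5, 54.5 and 62.5 CPM in group 12. The rise in 12ON over 12 was 1.06 ± 0.18 (SE, adjusted p = 0.000217) for Col4a1 and 0.58 ± 0.14 (SE, adjusted p = 0.00330) for Col4a2. In 7OFF both were lower than in 12ON, Col4a1 by -1.37 ± 0.18 (SE, adjusted p = 3.30e-05) and Col4a2 by -0.77 ± 0.14 (SE, adjusted p = 0.000439), and in 3OFF the differences were -0.56 ± 0.18 (SE, adjusted p = 0.0265) and -0.40 ± 0.14 (SE, adjusted p = 0.0379). The genes share 22 exon bases, and reads there counted for both. The other 4 type IV chains, those of the basement membranes of kidney, lung and smooth muscle, were scarce and none was called in 12ON against 12. X-linked Col4a5 had 5.50, 4.84 and 4.40 CPM in 12ON livers, against 6.28, 4.75 and 8.64 CPM in group 12, and it stood at 3.57, 4.30 and 3.59 CPM in 1OFF livers, 7.52, 2.83 and 4.44 in 2OFF, 4.18, 2.74 and 10.3 in 3OFF and 1.92, 4.08 and 6.03 in 7OFF. Within 2OFF, 3OFF, 7OFF and 12 the liver with high Xist had the highest Col4a5, and within 12ON it did not. Col4a3, Col4a4 and Col4a6 ran between 0.101 and 1.13 CPM over all libraries.

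Type VI collagen, a beaded filament near cells, is built from the chains of Col6a1, Col6a2 and Col6a3. Col6a3 had 39.1, 40.7 and 35.4 CPM in 12ON livers, against 13.6, 13.2 and 19.97 CPM in group 12, and it stood at 42.2, 36.7 and 34.7 CPM in 1OFF livers, 32.2, 36.5 and 25.7 in 2OFF, 28.01, 15.5 and 23.2 in 3OFF and 12.4, 20.2 and 28.5 in 7OFF. Its 12ON livers lay apart from group 12, with a rise of 1.29 ± 0.26 (SE, adjusted p = 0.000844), and it was lower than in 12ON in 3OFF (-0.79 ± 0.26 (SE, adjusted p = 0.0275)) and in 7OFF (-0.91 ± 0.26 (SE, adjusted p = 0.00936)). Col6a1 had 35.1, 27.9 and 26.4 CPM in 12ON livers, against 19.1, 20.9 and 23.6 CPM in group 12, and it stood at 37.4, 37.8 and 32.02 CPM in 1OFF livers, 40.3, 26.6 and 33.7 in 2OFF, 35.96, 18.2 and 22.9 in 3OFF and 12.996, 25.1 and 35.02 in 7OFF. Col6a2 had 30.9, 25.7 and 25.7 CPM in 12ON livers, against 15.1, 15.8 and 22.3 CPM in group 12, and it stood at 35.6, 32.9 and 27.7 CPM in 1OFF livers, 34.7, 24.9 and 27.1 in 2OFF, 28.2, 14.1 and 20.01 in 3OFF and 12.3, 22.1 and 29.7 in 7OFF. For both the 12ON livers lay above those of group 12, yet neither passed (Col6a1, 0.49 ± 0.29 (SE, adjusted p = 0.180); Col6a2, 0.63 ± 0.28 (SE, adjusted p = 0.0770)). In 1OFF, Col6a2 was higher than in group 12 (0.85 ± 0.28 (SE, adjusted p = 0.0279)). Of the later chains, Col6a5 had 1.48, 1.69 and 3.32 CPM in 12ON livers, against 3.11, 3.53 and 3.73 CPM in group 12, and it stood at 1.33, 1.48 and 2.54 CPM in 1OFF livers, 1.00, 0.959 and 2.05 in 2OFF, 2.68, 3.81 and 2.11 in 3OFF and 2.06, 2.05 and 2.11 in 7OFF. It was not called in 12ON against 12 (-0.68 ± 0.34 (SE, adjusted p = 0.120)) but was lower than in group 12 in 1OFF (-0.98 ± 0.35 (SE, adjusted p = 0.0430)) and 2OFF (-1.38 ± 0.35 (SE, adjusted p = 0.00696)).

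The collagens that sit on fibrils, the FACIT group, split. Col16a1 (chr4:130047840-130099283) had 27.2, 40.7 and 30.1 CPM in 12ON livers, against 7.73, 8.47 and 9.65 CPM in group 12, so that each 12ON liver held more than any of group 12. Col16a1 stood at 33.9, 30.04 and 47.01 CPM in 1OFF livers, 28.998, 32.3 and 40.8 in 2OFF, 21.6, 30.4 and 19.6 in 3OFF and 8.87, 19.6 and 17.99 in 7OFF. It had the largest rise of all collagens, 1.92 ± 0.27 (SE, adjusted p = 4.96e-05), and was lower in 7OFF than in 12ON (-1.07 ± 0.26 (SE, adjusted p = 0.00386)), though not called in 3OFF (-0.45 ± 0.26 (SE, adjusted p = 0.195)). Col12a1, a FACIT of tendon and of tissue under strain, had 3.07, 5.14 and 4.09 CPM in 12ON livers, against 1.92, 1.96 and 2.56 CPM in group 12, and it stood at 4.90, 5.57 and 3.36 CPM in 1OFF livers, 3.16, 5.58 and 3.62 in 2OFF, 2.27, 2.30 and 2.20 in 3OFF and 2.13, 2.03 and 3.17 in 7OFF. It rose in 12ON (0.92 ± 0.26 (SE, adjusted p = 0.00959); 0.0553 without 12ON replicate 2) and was lower in 3OFF (-0.86 ± 0.26 (SE, adjusted p = 0.0190)) and 7OFF (-0.74 ± 0.26 (SE, adjusted p = 0.0295)) than in 12ON, the last with overlap. Col14a1, the most abundant FACIT, had 77.2, 77.6 and 88.7 CPM in 12ON livers, against 74.3, 55.7 and 88.9 CPM in group 12, and it stood at 106, 102 and 85.01 CPM in 1OFF livers, 94.2, 88.7 and 97.2 in 2OFF, 87.6, 83.1 and 86.2 in 3OFF and 86.9, 104 and 94.2 in 7OFF. It was not called in 12ON against 12, with 0.15 ± 0.14 (SE, adjusted p = 0.374).

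Col9a3 and Col22a1, FACITs of cartilage and of the muscle and tendon junction, stayed under 1 CPM. Col9a3 had 0.351, 0.308 and 0.302 CPM in 12ON livers, against 0.0519, 0.128 and 0.172 CPM in group 12, and it stood at 0.259, 0.344 and 0.299 CPM in 1OFF livers, 0.213, 0.252 and 0.169 in 2OFF, 0.183, 0.114 and 0.190 in 3OFF and 0.279, 0.248 and 0.305 in 7OFF. It was higher in 12ON than in 12 (1.29 ± 0.34 (SE, adjusted p = 0.00814)), and lower in 3OFF than in 12ON (-0.99 ± 0.31 (SE, adjusted p = 0.0242)). At this level a value rests on few reads, and the gene overlaps another on the opposite strand in 234 exon bases. Col22a1 had 0.443, 0.242 and 0.358 CPM in 12ON livers, against 0.986, 0.963 and 0.689 CPM in group 12, and it stood at 0.370, 0.344 and 0.635 CPM in 1OFF livers, 0.476, 0.404 and 0.458 in 2OFF, 0.568, 0.666 and 0.840 in 3OFF and 0.664, 0.609 and 0.540 in 7OFF. Its direction was the reverse, lower in 12ON than in 12 (-1.30 ± 0.29 (SE, adjusted p = 0.00168)) and higher in 3OFF (0.97 ± 0.28 (SE, adjusted p = 0.0165)) and 7OFF (0.78 ± 0.29 (SE, adjusted p = 0.0396)) than in 12ON. With the mitochondrial term the difference between 12ON and 12 was -0.95 and not called (adjusted p = 0.120).

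Col15a1 and Col18a1 are multiplexins, collagens of the outer face of basement membranes. Col18a1 had 874, 754 and 858 CPM in 12ON livers, against 955, 924 and 899 CPM in group 12, a small gap between groups that did not pass (-0.16 ± 0.13 (SE, adjusted p = 0.320)). Col18a1 stood at 939, 917 and 1153 CPM in 1OFF livers, 1219, 970.3 and 1141 in 2OFF, 1331, 1159.99 and 1142 in 3OFF and 1246, 1066 and 1148 in 7OFF. It was higher than in 12ON in 3OFF (0.55 ± 0.13 (SE, adjusted p = 0.00460)) and 7OFF (0.48 ± 0.13 (SE, adjusted p = 0.00687)), with groups apart in both. On library totals without TMM both calls ended, at 0.23 (adjusted p = 0.126) in 3OFF and 0.056 (adjusted p = 0.707) in 7OFF. Col15a1 had 13.6, 13.3 and 13.7 CPM in 12ON livers, against 32.8, 46.2 and 17.9 CPM in group 12, and group 12 was spread widely. Col15a1 stood at 17.8, 15.2 and 13.9 CPM in 1OFF livers, 11.6, 16.7 and 10.2 in 2OFF, 8.42, 9.91 and 7.59 in 3OFF and 16.7, 15.2 and 18.9 in 7OFF. It was lower in 12ON than in 12 (-1.25 ± 0.25 (SE, adjusted p = 0.000857)), and lower than in group 12 in each OFF group, with -1.04 ± 0.25 in 1OFF, -1.33 ± 0.25 in 2OFF, -1.90 ± 0.26 in 3OFF and -0.93 ± 0.25 in 7OFF (SE; adjusted p = 0.00528, 0.00098, 0.000312 and 0.0426). With the mitochondrial term the difference between 12ON and 12 was -0.96 and not called (adjusted p = 0.0915).

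Among the transmembrane collagens, Col13a1, found at cell contacts, had 2.64, 3.25 and 2.55 CPM in 12ON livers, against 5.29, 5.52 and 4.05 CPM in group 12. Col13a1 stood at 2.44, 3.05 and 2.73 CPM in 1OFF livers, 2.97, 2.83 and 4.17 in 2OFF, 3.47, 3.98 and 5.77 in 3OFF and 4.19, 3.65 and 4.43 in 7OFF. It was lower in 12ON than in 12 (-0.81 ± 0.21 (SE, adjusted p = 0.00481)) and higher in 3OFF (0.64 ± 0.21 (SE, adjusted p = 0.0262)) and 7OFF (0.54 ± 0.21 (SE, adjusted p = 0.0451)) than in 12ON. On library totals all 3 calls of Col13a1 ended, at -0.31, 0.31 and 0.12 (adjusted p = 0.215, 0.233 and 0.647). The calls in 3OFF and 7OFF also ended without replicate 1 or 3 of 12ON. Leaving out replicate 3 of 3OFF ended the first, and replicate 1 or 3 of 7OFF the second. Col25a1, known from amyloid deposits of brain, had 0.166, 0.0660 and 0.151 CPM in 12ON livers, against 1.61, 0.642 and 0.345 CPM in group 12, where replicate 1 of group 12 was far above the other libraries. Col25a1 stood at 0.241, 0.280 and 0.336 CPM in 1OFF livers, 0.113, 0.151 and 0.241 in 2OFF, 0.162, 0.362 and 0.271 in 3OFF and 0.559, 0.248 and 0.235 in 7OFF. The difference between 12ON and 12 was -2.62 ± 0.56 (SE, adjusted p = 0.00139), and -1.88 without that library. With the mitochondrial term it was -2.02 and not called (adjusted p = 0.0915). Col7a1, the collagen of the anchoring fibrils of skin, had 0.259, 0.176 and 0.509 CPM in 12ON livers, against 0.415, 0.610 and 0.345 CPM in group 12, and it stood at 0.444, 0.215 and 0.374 CPM in 1OFF livers, 0.351, 0.379 and 0.313 in 2OFF, 0.0811, 0.228 and 0.108 in 3OFF and 0.838, 0.631 and 0.563 in 7OFF. It was higher in 7OFF than in 12ON (1.08 ± 0.40 (SE, adjusted p = 0.0393)), and its highest 12ON liver lay under its lowest 7OFF liver. Groups were likewise apart for 95.9% of all genes called in that comparison. With the mitochondrial term the difference of Col7a1 was 0.37 and not called (adjusted p = 0.526). The other 7 tested genes outside the fibrillar and type IV classes, Col6a4, Col6a6, Col8a1, Col8a2, Col20a1, Col23a1 and Col26a1, were not called in 12ON against 12, 3OFF against 12ON or 7OFF against 12ON and stayed under 2 CPM.

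At days 1 and 2 after injury no collagen was called against 12ON. None of the 36 genes was called higher or lower in 1OFF than in 12ON, where 0.00562% of all genes were higher and 0% lower, and at an unadjusted p under 0.05 there were 3 (Col27a1, Col5a3 and Col18a1). In 2OFF again none was called, with 0% of all genes higher and 0% lower, and 2 at an unadjusted p under 0.05 (Col27a1 and Col18a1). Over all genes the count in 2OFF against 12ON depended on the setting, with 439 called with the replicate number as a block, 138 on library totals and 49 at a minimum count of 30. For the collagens DESeq2 gave 2 higher and none lower. A p that misses the threshold does not show that the levels were equal. In 3OFF, 3 collagens were higher and 7 lower than in 12ON, where 15.3% of all genes were higher and 17% lower. The 7 lower were Col1a1, Col3a1, Col4a1, Col4a2, Col6a3, Col9a3 and Col12a1, and the 3 higher Col13a1, Col18a1 and Col22a1. These calls rest on small margins: without single libraries the count of lower genes fell to 1 (3OFF replicate 3), 2 (3OFF replicate 2, 12ON replicate 1 or 2) and 3 (12ON replicate 3), and that of higher genes to 1 (3OFF replicate 3). On library totals without TMM, 0 were higher and 12 lower. In 7OFF, 5 were higher (Col7a1, Col13a1, Col18a1, Col22a1 and Col27a1) and 10 lower (Col1a1, Col1a2, Col3a1, Col4a1, Col4a2, Col5a1, Col5a2, Col6a3, Col12a1 and Col16a1), where 21.4% of all genes were higher and 22.7% lower. The median log2 fold change of the 36 against 12ON was -0.19 in 3OFF and -0.089 in 7OFF, and that of all genes 0.013 and 0.0062, while the 9 fibrillar genes alone had -0.28 in 3OFF and -0.69 in 7OFF. The 10 make 27.8% of the collagens tested and the 5 make 13.9%. Without TMM the split was 1 higher and 13 lower, and leaving out replicate 1, 2 or 3 of 7OFF or replicate 2 or 3 of 12ON left 3 higher. On library totals the calls of Col13a1, Col18a1 and Col22a1 ended in 3OFF, and these with that of Col7a1 in 7OFF. In 3OFF each call but that of Col18a1 ended without one or more single libraries. In 7OFF this held for Col5a1, Col7a1, Col12a1, Col13a1 and Col22a1, and not for the other 10.

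Cell type markers differed in the same comparisons. All 7 hepatocyte markers were higher than in 12ON in 3OFF and in 7OFF, with summed levels of 52723 to 79982.6 CPM in 3OFF and 70081 to 87428.5 CPM in 7OFF, against 27328 to 34809.9 CPM in 12ON. Of 8 cholangiocyte markers 7 were lower in each, with 76.1 to 88.1 CPM in 3OFF and 53.1 to 93.2 CPM in 7OFF, against 194 to 215 CPM in 12ON. Of 9 endothelial markers 8 were higher in 3OFF and 6 in 7OFF, with 288 to 336 CPM in 3OFF and 267 to 325 CPM in 7OFF, against 179 to 207 CPM in 12ON. Of the 12 markers of portal fibroblasts, mesothelium and myofibroblasts 3 were lower and 1 higher in each, with 45.5 to 49.99 CPM in 3OFF and 34.4 to 56.3 CPM in 7OFF, against 75.8 to 76.4 CPM in 12ON. Of 10 stellate cell markers 1 was higher and 1 lower in 3OFF and 2 were higher in 7OFF, with 282 to 297 CPM in 3OFF and 285 to 336 CPM in 7OFF, against 244 to 275 CPM in 12ON. Macrophage markers were higher in 3 of 8 cases in 3OFF and lower in 2 in 7OFF. The part of these cell types in the differences from 12ON was not tested.

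These 4 comparisons share the 12ON livers with the comparison of 12ON and 12, so their directions are not independent of it. The comparison of 7OFF with 1OFF shares no library with that of 12ON and 12. In 7OFF, 2 collagens were higher than in 1OFF and 10 lower, where 14.8% of all genes were higher and 15.8% lower. All 10 were among the 11 that were higher in 12ON than in 12, which is 90.9% of the 11, Col9a3 being the other. The 2 that were higher, Col13a1 and Col27a1, were among the 5 that were lower in 12ON, 40% of the 5. Over all genes tested, 50.6% of the 4269 higher in 12ON than in 12 were lower in 7OFF than in 1OFF. Of the 4029 lower in 12ON, 48.7% were higher in 7OFF. Opposite calls in these comparisons were thus common to genes in general. All 7 hepatocyte markers were also higher in 7OFF than in 1OFF, and 2 of 8 cholangiocyte markers lower. Col1a1 had -1.59 ± 0.32, Col4a1 -1.52 ± 0.18, Col3a1 -1.29 ± 0.29 and Col16a1 -1.25 ± 0.26 in 7OFF against 1OFF (SE, adjusted p = 0.00201, 5.89e-05, 0.00402 and 0.00258). The calls for the 2 higher genes were lost together without replicate 1 or 3 of 1OFF or replicate 2 of 7OFF, and 1 gene was higher without any single one of the other 3 libraries. No test was made of the relation across genes, and the genes are not independent of each other.

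**Figure D3:**
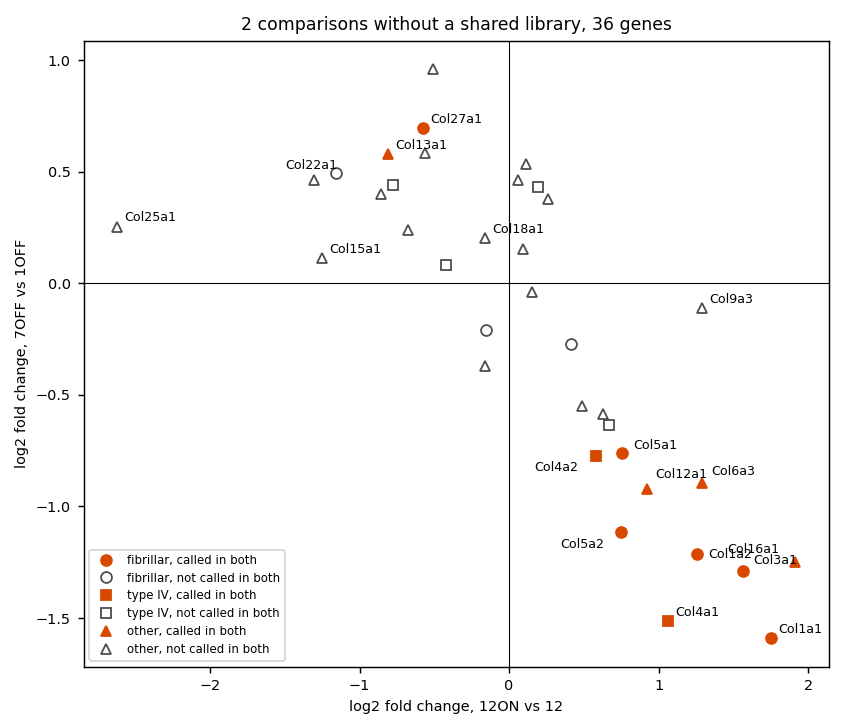
Log2 fold changes of the 36 tested collagen genes in 12ON vs 12 (x axis) and 7OFF vs 1OFF (y axis), which share no library; filled points were called in both, and the shape gives the type. The 10 genes higher in 12ON and lower in 7OFF lie at the lower right, with Col1a1 at 1.75 and -1.59, and Col13a1 and Col27a1 at the upper left.

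Each OFF group was also set against group 12. These comparisons share the 3 livers of group 12 with that of 12ON and 12, so their directions are not independent of it. In 1OFF, 13 collagens were higher and 5 lower than in group 12, where 17.1% of all genes were higher and 16.3% lower, and in 2OFF 10 were higher and 5 lower, where 18.1% were higher and 17% lower. Without TMM these became 16 and 1 in 1OFF and 15 and 3 in 2OFF, and with a term for the mitochondrial share 2 and 3 in 1OFF and 2 and 0 in 2OFF. Over all genes that term cut the calls from 5939 to 1847 in 1OFF and from 6236 to 1900 in 2OFF. Every 1OFF and 2OFF liver lay above group 12 in this share, so the term cannot separate the share from the group difference. Without TMM the calls over all genes were 7792 in 1OFF and 8450 in 2OFF. Col16a1 led in both, with 2.09 ± 0.27 (SE, adjusted p = 5.70e-05) in 1OFF and 1.97 ± 0.27 (SE, adjusted p = 8.34e-05) in 2OFF. Col1a1 differed by 1.73 ± 0.32 in 1OFF and 1.67 ± 0.32 in 2OFF (SE, adjusted p = 0.000936 and 0.00108). In 3OFF, 2 were higher (Col16a1, 1.46 ± 0.27 (SE, adjusted p = 0.00220), and Col18a1, 0.39 ± 0.13 (SE, adjusted p = 0.0481)) and 3 lower (Col7a1, Col15a1 and Col25a1), where 9.47% of all genes were higher and 7.95% lower. In 7OFF, Col27a1 was higher (0.77 ± 0.22 (SE, adjusted p = 0.0495)) and Col15a1 lower (-0.93 ± 0.25 (SE, adjusted p = 0.0426)), where 2.47% of all genes were higher and 3.31% lower. Both of these calls ended without replicate 2 of 7OFF, or without replicate 1 or 2 of group 12, and the call of Col15a1 also without replicate 1 of 7OFF. The main scar collagens of 7OFF did not pass against group 12, with Col1a1 at 0.14 ± 0.32 (SE, adjusted p = 0.843) and Col3a1 at 0.34 ± 0.29 (SE, adjusted p = 0.535).

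Summed by type, the 11 fibrillar genes reached 761 ± 169.6 CPM in 1OFF, 669.5 ± 109 in 2OFF, 446 ± 117 in 3OFF and 346 ± 111 in 7OFF, and 708 ± 71.5 in 12ON, against 286 ± 40.9 in group 12 (SD, n = 3 each). The 6 type IV genes summed to 324 ± 21.6, 328 ± 70.4, 216 ± 7.72 and 138 ± 31.7 CPM in the OFF groups by day, and to 304 ± 29.7 in 12ON, against 167 ± 9.08 in group 12. For both types the 12ON livers lay above all livers of 7OFF and 12. The other types without Col18a1 moved less, with 271 ± 16.2, 249.6 ± 8.62, 203 ± 19.5 and 210.1 ± 39.4 CPM by day, and 239 ± 2.80 in 12ON, against 187 ± 11.7 in group 12. Col18a1 alone gave 38.96% to 40.9% of all collagen counts in 12ON livers, against 55.96% to 61.6% in group 12. It gave 38.1% to 50.2% in 1OFF and 56.96% to 71.1% in 7OFF. The sum over all collagens was 2079 ± 158 CPM in 12ON, against 1566 ± 35.8 CPM in group 12. It was 1847 ± 147 CPM in 7OFF, against 2359 ± 90.5 CPM in 1OFF. Both differences had the direction of the fibrillar sum.

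**Figure D4:**
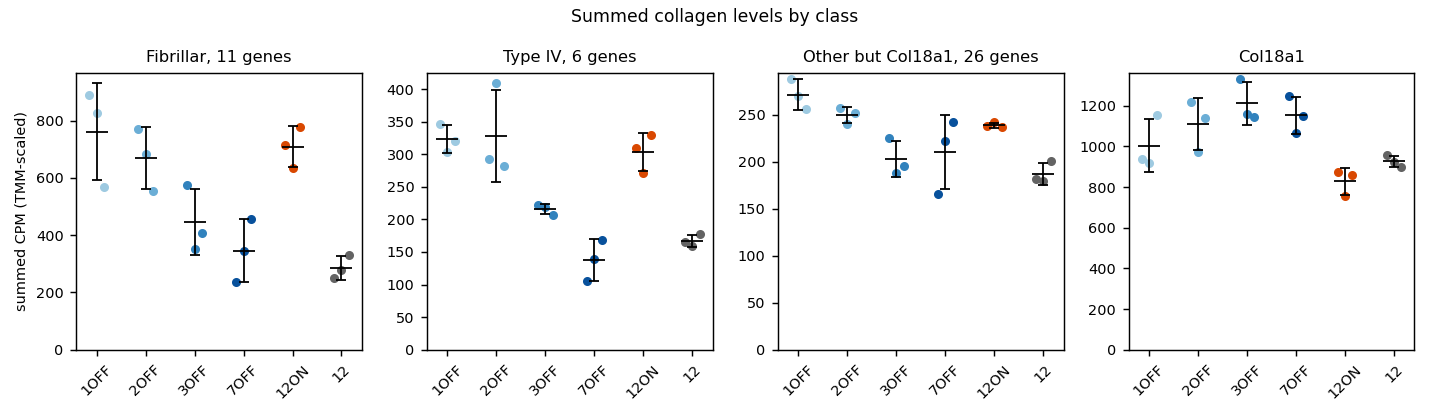
Summed TMM-scaled CPM by collagen type, with points for livers, a long bar for the mean and error bars for the SD of 3 livers; each y axis starts at 0 and has its own scale. Fibrillar genes reach 708 ± 71.5 CPM in 12ON and 286 ± 40.9 CPM in 12, and the mean of Col18a1 alone exceeds the mean fibrillar sum in each group.

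Ratios between chains of one collagen type, and of Col3a1 to Col1a1 from separate types, were taken within each liver. Per kb of exon, the ratio of Col1a1 to Col1a2 was 1.48, 1.73 and 1.51 in 12ON livers, against 1.00, 1.19 and 1.12 in group 12, with no overlap. It averaged 1.40 ± 0.0501 in 1OFF, 1.43 ± 0.229 in 2OFF, 1.19 ± 0.0967 in 3OFF and 1.04 ± 0.188 in 7OFF (SD, n = 3 each). The ratio of Col4a1 to Col4a2 was 2.40, 2.14 and 2.46 in 12ON, against 1.66, 1.76 and 1.62 in group 12, and averaged 2.59 ± 0.297, 2.46 ± 0.460, 2.11 ± 0.202 and 1.53 ± 0.106 in the OFF groups by day. The 7OFF livers lay below every other liver in this ratio, by a narrow margin from group 12. Col6a1 and Col6a2 kept closer together, 2.06 ± 0.106 in 12ON and 2.32 ± 0.264 in group 12, with overlap, while the ratio of Col6a3 to Col6a1 was 0.478 ± 0.0641 in 12ON and 0.267 ± 0.0392 in 12, without overlap. Col3a1 per Col1a1 was 2.48 ± 0.305 in 7OFF, against 1.83 ± 0.0804 in 12ON, also apart. A two-sided exact permutation test on the log2 ratio of 3 against 3 livers cannot give a p below 0.1, the value for each of the pairs of groups without overlap, and adjusted over the 60 tests made it is 0.24. A ratio within a library does not depend on the scaling, but the exon length behind each gene is that of all annotated exons, so the level of a ratio is less certain than its difference between groups.

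**Figure D5:**
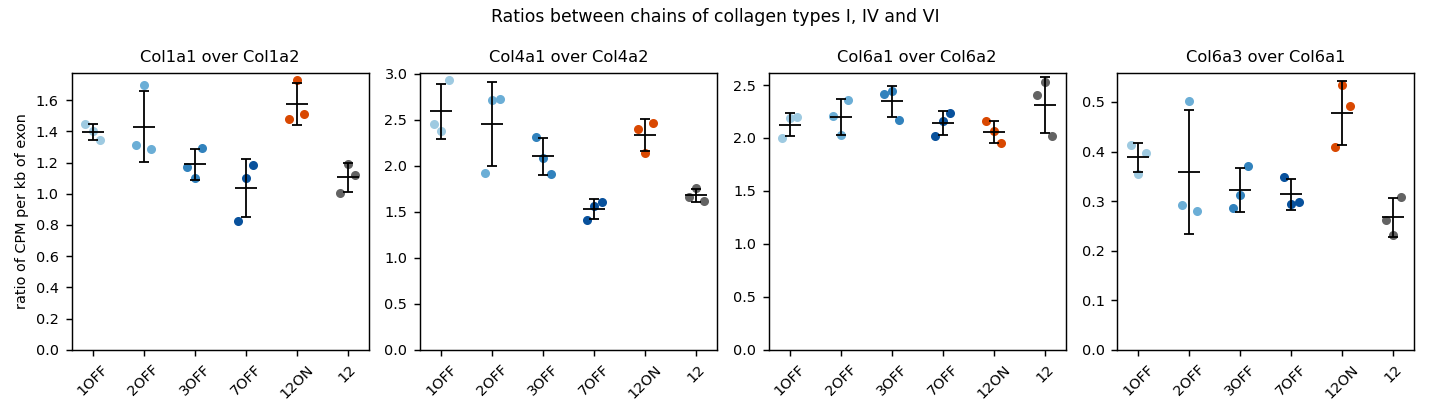
Ratio of CPM per kb of exon between chains of 1 collagen type in each liver, with the mean and the SD of 3 livers and each y axis from 0. Col1a1 over Col1a2 is 1.57 ± 0.134 in 12ON and 1.10 ± 0.0932 in 12, and Col6a1 over Col6a2 overlaps between these groups.

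Collagen chains are hydroxylated, folded, exported, trimmed and crosslinked by other proteins, whose genes were called in both directions. Over all genes 24% were higher and 22.6% lower in 12ON than in 12, and 21.4% higher and 22.7% lower in 7OFF than in 12ON, and each list is read beside these shares. Of 15 hydroxylases and glycosyltransferases tested, 3 were higher and 4 lower in 12ON than in 12, both near the share of all genes. Crtap, part of the complex that modifies prolines of new chains, stood at 30.4 ± 0.780 CPM in 12ON and 10.7 ± 2.23 CPM in 12 (1.51 ± 0.14 (SE, adjusted p = 1.72e-06)). Colgalt1, which adds galactose to collagen, and P4ha3, a prolyl hydroxylase, were also higher (0.55 ± 0.10 (SE, adjusted p = 0.000233) and 1.81 ± 0.66 (SE, adjusted p = 0.0336)). Lower were Colgalt2 (-2.15 ± 0.54, adjusted p = 0.00406), Plod1 (-0.39 ± 0.11, adjusted p = 0.00672), P4hb (-0.74 ± 0.21, adjusted p = 0.00874) and Ppib (-0.46 ± 0.16, adjusted p = 0.0265). In 7OFF against 12ON, 1 of the 15 was higher and 2 lower, the lower being Crtap (-1.29 ± 0.14, adjusted p = 7.74e-06) and Colgalt1 (-0.75 ± 0.10, adjusted p = 2.42e-05). Of 10 chaperones and export factors, also near those shares, 2 were higher in 12ON than in 12, Creb3l1 (0.89 ± 0.29, adjusted p = 0.0205) and Fkbp10 (0.77 ± 0.26, adjusted p = 0.0267), and 3 lower, Mia2, Mia3 and Sec23a, which load or coat the large vesicles that carry procollagen. Mia3 had 70.6 ± 5.61 CPM in 12ON and 117 ± 12.5 CPM in 12 (-0.73 ± 0.12 (SE, adjusted p = 0.00013)). In 7OFF, 3 were higher than in 12ON and 3 lower, among them Serpinh1, the collagen chaperone of the heat shock family (-0.66 ± 0.23 (SE, adjusted p = 0.0300)). The median log2 fold changes of the hydroxylase list were -0.08 in 12ON against 12 and -0.01 in 7OFF against 12ON, and those of the export list -0.17 and 0.16.

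Of 13 genes of propeptide processing and crosslinking, 4 were higher and 2 lower in 12ON than in 12, beside 24% and 22.6% of all genes. Loxl2, a lysyl oxidase that crosslinks chains, had 18.6 ± 3.41 CPM in 12ON and 8.77 ± 0.819 CPM in 12 (1.08 ± 0.22 (SE, adjusted p = 0.000928)), and Adamts14, Loxl1 and Tgm2 were the other 3. Bmp1, the protease that removes the C-terminal propeptide, was lower, 57.2 ± 10.3 CPM in 12ON and 120.4 ± 3.36 CPM in 12 (-1.07 ± 0.15 (SE, adjusted p = 3.74e-05)), as was Loxl4 (-2.71 ± 0.59, adjusted p = 0.00152). In 7OFF against 12ON, where 21.4% of all genes were higher and 22.7% lower, 2 of the 13 were higher, Bmp1 and Loxl4, and 6 lower, with Loxl2 (-1.06 ± 0.22, adjusted p = 0.00110) and Tgm2 (-1.05 ± 0.23, adjusted p = 0.00153) among them. Of 14 small proteoglycans and glycoproteins of fibrils, 5 were higher and 1 lower in 12ON than in 12, beside the same shares. Lum, lumican, which binds type I fibrils, had 44.04 ± 2.76 CPM in 12ON and 21.03 ± 2.38 CPM in 12 (1.07 ± 0.28 (SE, adjusted p = 0.00507)), and Fmod, Postn and Thbs2 were also higher. The one that was lower was Fn1, fibronectin, much of which hepatocytes make (780.4 ± 162 CPM in 12ON and 2402 ± 355 CPM in 12). In 7OFF against 12ON, 2 were higher and 3 lower, the 3 being Postn (-1.02 ± 0.21, adjusted p = 0.00101), Sparc (-0.79 ± 0.18, adjusted p = 0.00266) and Lum (-0.85 ± 0.27, adjusted p = 0.0199). Medians in 12ON against 12 and in 7OFF against 12ON were 0.13 and -0.60 for the crosslinking list and 0.38 and -0.31 for the fibril list.

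Partners of type IV collagen in basement membranes were higher in 12ON than in 12 in 10 of 15 cases and lower in 1, beside 24% and 22.6% of all genes. The laminin chain Lama5 had 20.9 ± 2.30 CPM in 12ON and 3.76 ± 0.370 CPM in 12 (2.47 ± 0.27 (SE, adjusted p = 4.73e-06)). Lamc1 (0.90 ± 0.16), Lamc3 (1.84 ± 0.38) and Lama2 (1.15 ± 0.28) were higher too (SE, adjusted p = 0.000233, 0.000944 and 0.00316). Lama3 was the one that was lower (-2.49 ± 0.86 (SE, adjusted p = 0.0271)). In 7OFF against 12ON, 5 were lower and 2 higher, with Lama5 at -1.81 ± 0.26 (SE, adjusted p = 5.46e-05) and Nid1, nidogen, which ties laminin to type IV collagen, at -1.61 ± 0.26 (SE, adjusted p = 0.000149). Cholangiocyte markers, given above, moved in the same comparisons, and their part in these laminin differences was not tested. Of 11 collagen receptors and uptake genes, with calls in both directions under those shares, 2 were higher in 12ON than in 12, the collagen receptor kinase Ddr1 (2.75 ± 0.23 (SE, adjusted p = 6.46e-07)) and the uptake receptor Mrc2 (1.76 ± 0.28 (SE, adjusted p = 0.000134)), and 2 lower, the macrophage receptor Mrc1 and the integrin Itga1. In 7OFF against 12ON, 4 of these were lower and none higher, with Ddr1 at -2.11 ± 0.22 (SE, adjusted p = 5.91e-06). Of 23 genes of the TGF-beta and PDGF pathways that drive collagen transcription, 9 were higher and 3 lower in 12ON than in 12, beside 24% and 22.6% of all genes. The ligands Tgfb2 (1.61 ± 0.30 (SE, adjusted p = 0.000407)) and Pdgfa (0.89 ± 0.22 (SE, adjusted p = 0.00399)) were higher, while the ligand Tgfb1 (-0.49 ± 0.14 (SE, adjusted p = 0.00922)) and the receptors Tgfbr2 and Tgfbr3 were lower. In 7OFF against 12ON, 1 was higher and 4 lower, both below the 21.4% and 22.7% of all genes, the 4 being Pdgfa, Pdgfb, Tgfb2 and Tgif1. For these 3 lists the medians in 12ON against 12 were 0.56, 0.32 and 0.36, and in 7OFF against 12ON -0.34, -0.60 and -0.24.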

How the data were processed

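The 18 livers gave 1 library each of poly-A RNA, read from one end for 50 bases. Trim Galore and TopHat2 with genome build mm10 are the tools that the submitters' processing notes name, without versions. The deposited values are raw counts per gene. Per the file headers, the authors made them with featureCounts 1.5.0-p1 from the exons in Ensembl 82 (build GRCm38), ignoring strand and counting a read for every gene it overlapped by 10 bases or more. Levels of overlapping and antisense genes can therefore share reads.

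Symbols came from a reference table of gene names, which matched 34599 of 34937 genes. Counts were fitted with edgeR 4.0.16 (R 4.3.3): all 18 libraries in a single quasi-likelihood fit of 6 groups, TMM scaling, filterByExpr at a minimum count of 10, two-sided F tests and Benjamini-Hochberg adjustment over 17789 genes at 0.05. The standard error is the log2 fold change over the root of F. The biological coefficient of variation was 0.202 with 12 residual degrees of freedom. Replicates differed by a chi-square per gene of 31.6 to 287, where copies of 1 library would give about 1 or less. Nothing says how the mice were raised or sampled together. The p-values set differences between groups against the spread of livers within groups, and take the livers as independent mice. They come from this 1 series of 18 livers. On simulated data for 12ON against 12 with 17506 genes, the fit recovered 2%, 60%, 98% and 98% of 50 genes changed 1.5, 2, 4 and 8-fold, with 6 false calls. The simulation changed only 50 genes at each fold and gave every gene the same dispersion. In the livers 8298 genes were called in this comparison, so these shares do not give the recovery in the real data.

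The members and the lists of partner and marker genes were chosen with earlier results of these data known. Named genes are all collagens with a mean of at least 2 CPM or a call in 12ON against 12, 3OFF against 12ON or 7OFF against 12ON, and up to 4 partner genes in each direction per list with the smallest p. The 10 comparisons are the 5 of the design text, each OFF group against 12, and 7OFF against 1OFF. Alternatives were other scalings and filters, DESeq2 1.42.0, fits of 2 groups alone, terms for Xist, the mitochondrial share and the replicate number, stricter thresholds and leaving out each library.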

Additional observations from a re-analysis of the deposited data

Results flagged for a closer look

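For 12 collagen genes the difference from 12ON was not the same in 7OFF as in 1OFF by edgeR's quasi-likelihood test of that difference, which equals the comparison of 7OFF with 1OFF. For 10 of them the 7OFF value was the lower, by a log2 difference of -1.59 for Col1a1, -1.52 for Col4a1, -1.29 for Col3a1, -1.25 for Col16a1, -1.21 for Col1a2, -1.11 for Col5a2, -0.92 for Col12a1, -0.89 for Col6a3, -0.78 for Col4a2 and -0.76 for Col5a1. For the other 2 it was the higher, by 0.58 for Col13a1 and 0.69 for Col27a1. Of the 36 collagens tested, 5.56% were thus higher and 27.8% lower in 7OFF than in 1OFF, beside 14.8% and 15.8% of all genes. In each of the 12 the livers of 7OFF and 1OFF did not overlap, as they did not for 96.5% of all genes called in that comparison. Adjusted p-values ran from 5.89e-05 (Col4a1) to 0.0472 (Col13a1).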

How the results depend on the processing

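The results were 20 counts of collagens called and 41 calls of single genes. None of the 41 changed direction in 734 alternatives, 148 of which lost the call, and 7 kept it in every one: Col16a1 and Col4a1 in 12ON against 12, and Col1a1, Col3a1, Col4a1, Col5a2 and Col27a1 in 7OFF against 12ON. Of 360 alternative values of the counts, 104 moved by more than 1.5 times. Genes under 1 CPM, such as Col9a3 and Col7a1, rest on few counts.

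With a term for the mitochondrial share, counts higher were 2 (12ON against 12), 2 (1OFF against 12), 2 (2OFF against 12), 1 (3OFF against 12) and 0 (7OFF against 12), and counts lower 2, 3, 0, 1 and 0 in the same comparisons. Over all genes the term cut their calls from 8298 to 4117, 5939 to 1847, 6236 to 1900, 3099 to 731 and 1027 to 417. Group 12 lay under every other group in this share, so the term cannot separate the share from these group differences. In 7OFF against 12ON, groups likewise apart in this share, the term ended the calls of Col5a1, Col6a3, Col7a1, Col12a1 and Col22a1. In 3OFF against 12ON it ended those of Col3a1 and Col4a2. On library totals alone, 18 were higher and 3 lower in 12ON against 12, 0 higher and 12 lower in 3OFF against 12ON, 1 higher in 7OFF against 12ON, 0 higher in 7OFF against 1OFF, and 1 lower in 1OFF, 3 in 2OFF and 0 in 7OFF, each against 12. Over all genes library totals gave 10533 calls instead of 8298 in 12ON against 12. Against 12ON they gave 7478 instead of 5754 in 3OFF and 9552 instead of 7833 in 7OFF. In a test against a 1.5-fold change, counts higher were 6 in 12ON against 12, 6 in 1OFF, 5 in 2OFF, 1 in 3OFF and 0 in 7OFF against 12, 0 in 3OFF and 1 in 7OFF against 12ON and 0 in 7OFF against 1OFF. In that test counts lower were 3 in 12ON against 12, 0 in 1OFF, 2 in 2OFF, 1 in 3OFF and 0 in 7OFF against 12, 0 in 3OFF and 4 in 7OFF against 12ON and 2 in 7OFF against 1OFF. At an adjusted p under 0.01, counts higher were 1 in 3OFF and 0 in 7OFF against 12, 1 in 3OFF and 2 in 7OFF against 12ON and 0 in 7OFF against 1OFF, and counts lower 2 in 1OFF, 3 in 2OFF, 1 in 3OFF and 0 in 7OFF against 12 and 0 in 3OFF against 12ON. The fits at those stricter thresholds test the same values, so fewer calls follow from their construction; for the other settings the cause was not tested.

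DESeq2 gave 2 higher in 2OFF against 12ON, 4 in 3OFF against 12 and 2 in 7OFF against 12. Upper-quartile and RLE scaling each gave 1 higher in 3OFF and 0 in 7OFF against 12, and upper-quartile scaling 1 higher in 7OFF against 1OFF. With a minimum count of 30, 1 was lower in 3OFF against 12. With no count filter 0 were higher in 7OFF against 12, 2 in 7OFF against 12ON and 1 in 7OFF against 1OFF, and 4 were lower in 3OFF against 12ON. Fits of only the 2 groups compared gave 0 higher and 0 lower in 7OFF against 12, 3 higher in 7OFF against 12ON and 1 lower in 3OFF against 12. A term for high Xist gave 1 higher in 3OFF and 0 in 7OFF against 12. The labels do not say that the replicate numbers pair the mice, and they were not taken to. Libraries with the same number deviated from their group means with correlations of -0.18 to 0.29, and 0 to 4 of the 6 libraries of a comparison correlated best with their own number. With the replicate number as a block, 0 were higher in 7OFF against 12 and 1 in 7OFF against 1OFF, and every other count of collagens stayed within 1.5 times. Over all genes 439 were called in 2OFF against 12ON, where none was without it.

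Leaving out each library in turn gave ranges of 11 to 13 higher and 4 to 6 lower in 12ON against 12, 0 to 2 higher in 2OFF against 12ON (2 without 2OFF replicate 2), 1 to 3 higher and 1 to 8 lower in 3OFF against 12ON, 3 to 4 higher and 8 to 12 lower in 7OFF against 12ON, 2 to 4 lower in 1OFF against 12 and 3 to 6 lower in 2OFF against 12. The ranges were 1 to 2 higher and 1 to 3 lower in 3OFF against 12, 0 to 1 higher and 0 to 1 lower in 7OFF against 12 and 0 to 1 higher in 7OFF against 1OFF. Lower counts fell most without 1OFF replicate 1 or 2 and 12 replicate 1 or 2 in 1OFF against 12, without 2OFF replicate 2 and 12 replicate 1 or 2 in 2OFF against 12, and without 3OFF replicate 1 or 3 and 12 replicate 2 in 3OFF against 12.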
